A study of Homo sapiens with 6 samples.

Results

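The genes described are the Frizzled receptors FZD1 to FZD8 and their co-receptors LRP5 and LRP6, 10 of the 29710 genes in the count table, found by their symbols. The cells were MDA-MB-231, an established line of triple-negative breast cancer, and the assay was stranded RNA sequencing. In 3 libraries the cells overexpressed FLAG-tagged SRPK2, a kinase of splicing factors, and in 3 control libraries they carried an empty vector. The sources used here do not say whether the vectors were integrated, or whether clones were picked. The 10 genes were chosen by family, with their read counts and log2 fold changes of SRPK2 against control in these libraries known, so their differences are a description with no test. FZD9, another Frizzled, had 1 read over all 6 libraries, and FZD10 was not analysed here.

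Frizzled proteins are multi-pass membrane receptors whose extracellular cysteine-rich domain binds Wnt ligands. In the beta-catenin branch of the pathway, Wnt joins a Frizzled to LRP5 or LRP6. The complex recruits Dishevelled and axin, and beta-catenin escapes destruction and enters the nucleus. In other branches Frizzled proteins act without LRP5 or LRP6, for example in planar cell polarity. By sequence FZD1, FZD2 and FZD7 form a subgroup, FZD5 and FZD8 another, FZD3 and FZD6 a further one, and FZD4 groups with FZD9 and FZD10.

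The libraries held between 31140537 and 36908878 reads assigned to genes. SRPK2 itself stood at 213, 248 and 294 CPM in the SRPK2 libraries, against 37.8, 36.7 and 41.1 CPM in the control libraries, where CPM is the read count scaled to library size with TMM factors. The line's mesenchymal markers VIM, CD44, EGFR and AXL summed to 5550 to 5950 CPM in the SRPK2 libraries and 5810 to 5930 CPM in the controls. The luminal epithelial markers (5 of 5 with a row) summed to 67.9 to 69.8 CPM in the SRPK2 libraries and 63.5 to 65.3 CPM in the controls, apart between the groups, and their part in the differences below was not tested. Most of that sum was ERBB2, at 50.7 to 52.1 CPM with SRPK2 and 46.2 to 48.3 CPM in the controls (log2 fold change 0.13, SE 0.05, edgeR adjusted p = 0.234). The hormone receptor genes of that list, ESR1 and PGR, averaged 0.0300 and 0.0642 CPM in the SRPK2 libraries, against 0.0194 and 0.0653 CPM in the controls. Leukocyte markers (2 of 4 with a row) summed to 5.40 to 6.23 CPM in the SRPK2 libraries and 5.75 to 6.31 CPM in the controls, nearly all of it CD14. Endothelial markers (3 of 4) summed to 6.41 to 8.21 CPM in the SRPK2 libraries and 6.64 to 7.92 CPM in the controls.

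All 10 receptor genes had reads in every library, from 155 reads of FZD3 in control replicate 2 to 3241 reads of LRP5 in SRPK2 replicate 3, and all passed the filter on low counts. Levels of different genes are compared below in the authors' FPKM values, which divide reads by gene length and library size. Of the 100-base stretches in the annotated transcripts of these genes, 0 were found on the same strand in a transcript of any other gene, the other Frizzled genes included. In bulk RNA, fewer cells with a transcript and less of it per cell cannot be told apart.

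The FZD1, FZD2 and FZD7 subgroup, together with FZD6, supplied most Frizzled mRNA. FZD7, reported as abundant in triple-negative breast tumours, had 10.93, 10.28 and 11.55 FPKM in the SRPK2 libraries, against 11.06, 10.34 and 12.31 FPKM in the controls. It was the highest Frizzled in every library but shared its range with LRP5 in both groups. FZD6, which acts in planar cell polarity in mice, had 8.94, 9.39 and 10.48 FPKM with SRPK2, against 8.19, 9.42 and 9.75 FPKM in the controls. FZD2 had 8.49, 8.44 and 8.56 FPKM with SRPK2, against 8.15, 7.91 and 7.97 FPKM in the controls. FZD1 followed at 5.62, 5.55 and 5.97 FPKM with SRPK2, against 5.29, 4.79 and 5.70 FPKM in the controls. The order FZD6, FZD2, FZD1 held between the groups' ranges, with no overlap between neighbours in either group. For FZD2 the reads and FPKM values give a length of 4.16 kb, while the annotation of GENCODE 29 gives 2112 exonic bases. For FZD7 these lengths are 5.05 kb and 3859 bases. The first length is above the second in the other members too, for example 4.48 kb and 4065 bases for FZD6 and 8.14 kb and 7383 bases for FZD4. Part of the gap is thus not particular to FZD2 and FZD7. A shorter length gives a higher FPKM, so the order of the Frizzled genes and the shares below depend on the length used.

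The remaining Frizzled genes were lower. FZD4, a receptor of the ligand norrin as well as of Wnt proteins, had 3.54, 3.46 and 4.0 FPKM in the SRPK2 libraries, against 2.60, 2.36 and 2.56 FPKM in the controls. FZD8 had 2.15, 2.12 and 2.01 FPKM with SRPK2, against 2.20, 1.95 and 2.11 FPKM in the controls. FZD5, its closest relative, had 1.14, 1.07 and 1.19 FPKM with SRPK2, against 1.08, 0.96 and 1.12 FPKM in the controls. FZD3, which guides axons in mice, was the lowest of the 10, at 0.35, 0.34 and 0.37 FPKM with SRPK2 and 0.34, 0.31 and 0.33 FPKM in the controls.

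LRP5 was far above LRP6. LRP5 had 11.81, 10.84 and 12.86 FPKM in the SRPK2 libraries, against 10.91, 9.48 and 10.68 FPKM in the controls. LRP6 had 2.67, 2.60 and 2.97 FPKM with SRPK2, against 2.44, 2.29 and 2.52 FPKM in the controls. The LRP5 level was 4.17 to 4.42 times that of LRP6 in the SRPK2 libraries and 4.14 to 4.47 times in the controls, so this proportion overlapped between the groups. The order of the 10 levels was nearly the same in both groups. LRP5 was first and FZD7 next with SRPK2, and FZD7 first and LRP5 next in the controls, with overlapping ranges in each. FZD4 and LRP6 shared their range in the controls (2.36 to 2.60 and 2.29 to 2.52 FPKM), while in the SRPK2 libraries the lowest FZD4 value, 3.46 FPKM, was above the highest LRP6 value, 2.97 FPKM.

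**Figure D1:**
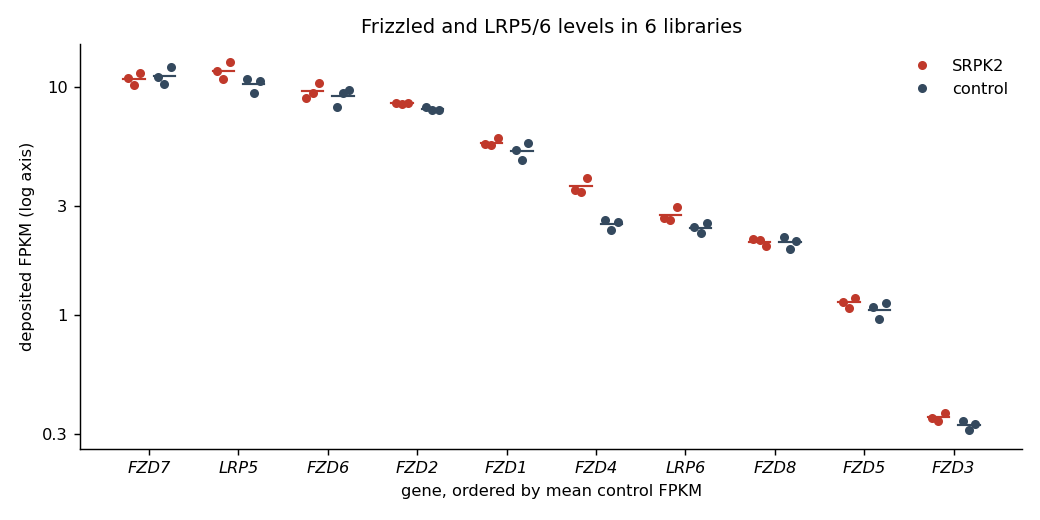
Deposited FPKM (log axis) of the 10 receptor genes, SRPK2 libraries left and control libraries right for each gene. Points are libraries and lines are means of 3. FZD4 has the widest gap between groups, with SRPK2 libraries at 3.46 to 4.0 FPKM and controls at 2.36 to 2.60 FPKM, and the groups of FZD2 and LRP6 are also apart in FPKM.

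As shares of the summed FPKM of the 8 Frizzled genes, FZD7, FZD2 and FZD6 together made up 68.9% to 69.3% in the SRPK2 libraries and 70.4% to 72.7% in the controls. FZD4 made up 8.60%, 8.51% and 9.06% with SRPK2, against 6.68%, 6.20% and 6.12% in the controls. FZD7 made up 26.6%, 25.3% and 26.2% with SRPK2, against 28.4%, 27.2% and 29.4% in the controls. Both shares were apart between the groups. Shares add up to the whole and so depend on each other, and the part of this in the FZD7 share was not tested. The sum itself overlapped, at 41.2, 40.6 and 44.1 FPKM with SRPK2 and 38.9, 38.0 and 41.8 FPKM in the controls. The sum of LRP5 and LRP6 was 14.5, 13.4 and 15.8 FPKM with SRPK2 and 13.3, 11.8 and 13.2 FPKM in the controls. These sums were apart by a narrow margin in FPKM, which has no TMM factor.

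**Figure D2:**
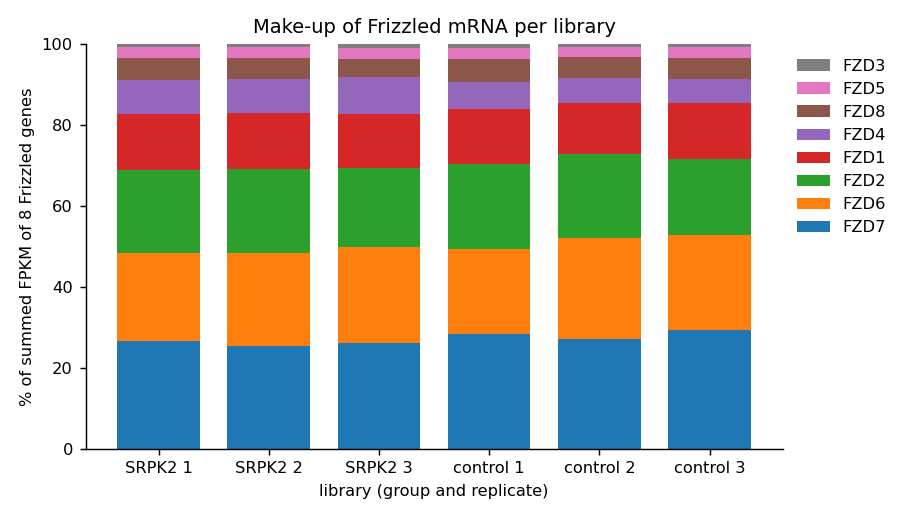
Share of each gene (%) in the summed FPKM of the 8 Frizzled genes, 1 bar per library. The FZD4 segment spans 8.51% to 9.06% in the SRPK2 libraries and 6.12% to 6.68% in the controls, and the order of the large segments (FZD7, FZD6, FZD2, FZD1) is similar in all bars.

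Between the groups FZD4 had the largest difference of the 10 genes. Its level was 28.7, 28.2 and 31.4 CPM in the SRPK2 libraries, against 21.5, 19.7 and 20.7 CPM in the controls, or 29.4 ± 1.75 and 20.7 ± 0.884 CPM (SD, n = 3 each). Every SRPK2 library was above every control library. The fold change was 1.43 (log2 fold change 0.51, SE 0.06, edgeR), a value above 97.9% of all tested genes. FZD4 was the only member past the threshold of the edgeR test, an adjusted p under 0.05, 1 of 10 where 0.454% of the 16515 tested genes were called (0.381% higher and 0.0727% lower with SRPK2). Since the genes were picked with this comparison known, nothing is read from that count.

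FZD4 (ENSG00000174804.4) has 2 exons and spans positions 86945679 to 86955391 of chromosome 11, minus strand (GRCh38, annotation of GENCODE 29). It overlaps PRSS23, a serine protease gene on the opposite strand that is far more abundant here, over 1399 exonic bases or 18.9% of the FZD4 exons. How the read counter treated strand is not stated in the labels used here, and reads of the shared stretch could be assigned to either gene. PRSS23 had 711, 735 and 685 CPM in the SRPK2 libraries, against 648, 661 and 647 CPM in the controls (log2 fold change 0.12, SE 0.05, edgeR adjusted p = 0.258). Its groups did not overlap, and its difference was smaller than that of FZD4. Per 100 PRSS23 reads there were 4.04, 3.83 and 4.59 FZD4 reads with SRPK2, against 3.32, 2.99 and 3.21 in the controls. This ratio too was apart between the groups. The part of PRSS23 reads in the FZD4 counts was not tested.

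**Figure D3:**
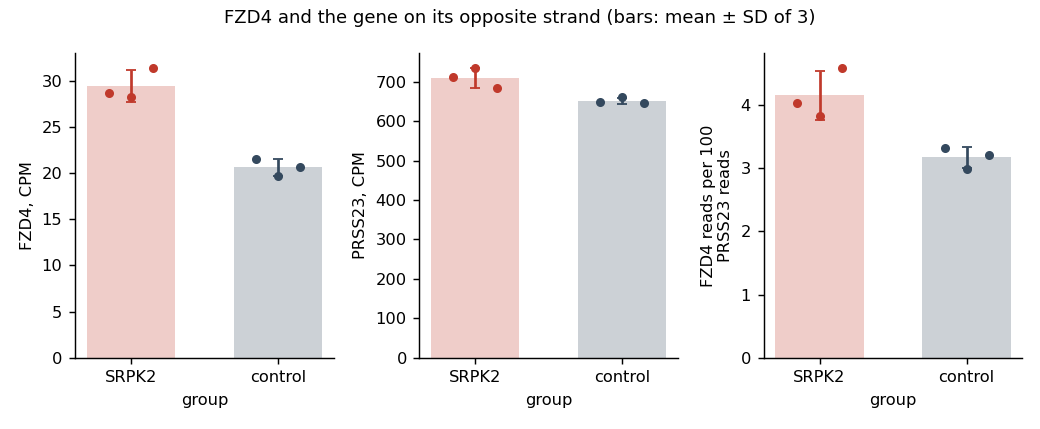
FZD4 level (CPM), PRSS23 level (CPM) and FZD4 reads per 100 PRSS23 reads, SRPK2 libraries left of controls. Points are libraries, bars are means and error bars are ± 1 SD of 3. The ratio spans 3.83 to 4.59 with SRPK2 and 2.99 to 3.32 in the controls.

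The promoter window of FZD4 is shown because this gene had the largest difference, and that of FZD8 because its mean level was 2.09 FPKM in both groups. The sequences are from RefSeq (GRCh38.p14), written on the gene's own strand from 250 bases before the transcription start to 50 after it, and 5 of the 10 genes had an entry (FZD1, FZD4, FZD5, FZD8 and LRP5). The FZD4 window is chr11:86955346-86955645 and the FZD8 window chr10:35642247-35642546, both on the minus strand. Capitals mark matches on either strand to the GC box, whose letters are GGGCGG. They also mark the CCAAT box, by its name, and the TATA box, searched as TATAAA.
FZD4: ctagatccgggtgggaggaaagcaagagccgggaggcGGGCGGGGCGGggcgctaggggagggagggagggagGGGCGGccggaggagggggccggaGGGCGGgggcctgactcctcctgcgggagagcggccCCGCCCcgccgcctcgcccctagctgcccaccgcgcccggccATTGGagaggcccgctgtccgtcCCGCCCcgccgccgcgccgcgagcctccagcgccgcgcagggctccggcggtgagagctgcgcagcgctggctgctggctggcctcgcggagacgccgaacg
FZD8: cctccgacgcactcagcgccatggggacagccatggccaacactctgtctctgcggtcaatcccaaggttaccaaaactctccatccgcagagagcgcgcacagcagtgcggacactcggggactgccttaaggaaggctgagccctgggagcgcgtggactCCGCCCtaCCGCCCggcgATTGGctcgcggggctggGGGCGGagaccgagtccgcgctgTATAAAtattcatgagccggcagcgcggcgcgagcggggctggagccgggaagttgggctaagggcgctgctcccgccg

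The FZD4 window had a GC content of 79.7%, 6 GC boxes, 2 of which overlap by a base, and 1 CCAAT box. The FZD8 window had a GC content of 67.0%, 3 GC boxes, 1 CCAAT box and a TATA box that starts 29 bases before the transcription start. Over all 35116 RefSeq promoter windows of this length the median GC content was 58.7%, and 45.0% held a GC box, 34.6% a CCAAT box and 11.5% a TATA box. The letters of the TCF/LEF core CTTTGA (12.9% of all windows) and of the AP-1 core TGANTCA (7.71%) were in none of the 5 windows on either strand, and those of the ETS core CGGAAG (19.5%) were in the LRP5 window only. These matches describe the sequence, and whether any of them is bound was not tested.

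Both co-receptors were slightly higher with SRPK2, LRP6 without overlap. LRP5 had 80.2, 73.9 and 84.6 CPM in the SRPK2 libraries, against 75.6, 66.4 and 72.3 CPM in the controls (log2 fold change 0.16, SE 0.06). Its groups overlapped, since SRPK2 replicate 2 was below control replicate 1. LRP6 had 30.5, 29.8 and 32.7 CPM with SRPK2, against 28.3, 26.9 and 28.6 CPM in the controls (0.15, SE 0.06). LRP6 and FZD4 were the 2 of 10 genes whose groups did not overlap in CPM, where 20.1% of all tested genes had groups apart (11.5% with SRPK2 higher and 8.69% with SRPK2 lower). LRP5 (chromosome 11, 68312609 to 68449275, plus strand) and LRP6 (chromosome 12, 12116025 to 12267012, minus strand) each have a principal transcript of 23 exons. LRP6 overlaps BCL2L14 on the opposite strand with 0 shared exonic bases, and BCL2L14 had 1 read over all libraries.

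The other Frizzled genes had log2 fold changes between -0.08 and 0.08. FZD1 had 42.5, 42.2 and 43.8 CPM with SRPK2, against 40.9, 37.5 and 43.0 CPM in the controls (log2 fold change 0.08, SE 0.06). FZD2 had 35.3, 35.2 and 34.4 CPM with SRPK2, against 34.5, 33.9 and 33.0 CPM in the controls (0.05, SE 0.05). FZD7, their close relative, had 55.1, 52.0 and 56.4 CPM with SRPK2, against 56.8, 53.8 and 61.8 CPM in the controls (-0.08, SE 0.06). The groups overlapped for each of these genes in CPM, and FZD7 and FZD8 were the members with values below 0. The FZD2 libraries were apart in FPKM, which has no TMM factor, at 8.44 to 8.56 with SRPK2 and 7.91 to 8.15 in the controls.

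FZD6 had 39.9, 42.1 and 45.3 CPM with SRPK2, against 37.3, 43.4 and 43.4 CPM in the controls (log2 fold change 0.04, SE 0.07). FZD3, FZD5 and FZD8 were counted from 155 to 350 reads per library and had log2 fold changes of 0.07 (SE 0.10), 0.06 (SE 0.08) and -0.03 (SE 0.08). Their levels spanned 5.18 to 5.40, 8.29 to 8.87 and 8.66 to 9.55 CPM with SRPK2, and 4.77 to 5.32, 7.64 to 8.66 and 8.96 to 9.96 CPM in the controls. All 3 overlapped between the groups. Over the 10 genes the median log2 fold change was 0.07, and 0.06 without FZD4, where the median over all tested genes was 0.00. Of the values 8 were positive, as were 8451 of the 16515 over all tested genes.

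The replicates of a group differed in a way shared by most of these genes. Control replicate 2 was the lowest control library for 8 of the 10, all but FZD2 and FZD6. SRPK2 replicate 2 was the lowest SRPK2 library for 7, namely FZD1, FZD3, FZD4, FZD5, FZD7, LRP5 and LRP6. SRPK2 replicate 3 was the highest SRPK2 library for 8, all but FZD2 and FZD8. Such ranks were not counted over all tested genes, so they are not shown to be particular to these genes. Correcting the libraries for gene length moved LRP6 to 0.09 (SE 0.05), FZD3 to 0.00 (SE 0.10), LRP5 to 0.13 (SE 0.06) and FZD4 to 0.47 (SE 0.06). FZD3 and LRP6 are the longest of the 10, at 15.2 kb and 11.4 kb as the reads and FPKM values give it. FZD4 is at 8.14 kb, and LRP5, at 6.81 kb, is shorter than FZD1 at 7.59 kb. The part of transcript length in the differences was not otherwise tested.

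**Figure D4:**
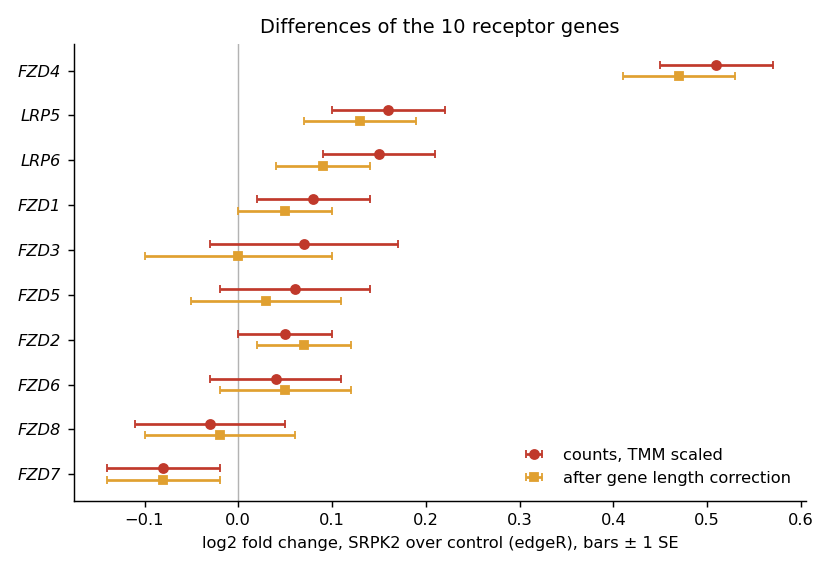
Log2 fold change of SRPK2 over control for the 10 genes (edgeR), with bars of ± 1 SE, from TMM-scaled counts (circles) and after a gene length correction (squares). FZD4 lies at 0.51 and 0.47, LRP6 moves to 0.09, and the other Frizzled genes lie between -0.08 and 0.08 in both.

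By the likeness rule, the genes whose log2 CPM pattern over the 6 libraries was nearest to that of FZD4 were ZC3HAV1, SAMD9 and EGLN2, of 16514 compared. The root mean square differences were 0.0363, 0.0437 and 0.0445 on the log2 scale, where the median gene was at 0.284. A gene with the same level in all 6 libraries would be at 0.262, the spread of FZD4 itself. ZC3HAV1, an antiviral zinc-finger protein, had 214, 206 and 226 CPM in the SRPK2 libraries, against 157, 153 and 157 CPM in the controls (log2 fold change 0.47, SE 0.05, edgeR adjusted p = 0.00188). SAMD9, an antiviral factor, had 76.6, 72.5 and 86.1 CPM with SRPK2, against 57.2, 55.3 and 53.5 CPM in the controls (0.50, SE 0.07, edgeR adjusted p = 0.00372). EGLN2, a prolyl hydroxylase gene, stood at 1.76 to 2.74 CPM and did not pass (edgeR adjusted p = 0.131). With so many genes and 6 libraries, close matches arise readily, and the rule selects them. The differences and adjusted p-values of these genes thus follow in part from the rule.

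The other genes of the Wnt pathway were taken from 10 lists by role, of which 120 of 137 genes had a row and 94 were tested. Over all lists 0 rose and 1 fell in the edgeR test, where 0.454% of all tested genes were called. At an unadjusted p under 0.05 there were 7 higher and 3 lower, where 17.2% of all tested genes were under it. DESeq2 called 0 higher and 1 lower, and limma on the FPKM values 0. In 20.2% of the 94 the SRPK2 and control ranges were apart, next to 20.1% of all tested genes, and the median log2 fold change was 0.04. Without SRPK2 replicate 2, 5 of 95 were higher and 2 lower in the edgeR test. In that fit 1403 of all 16772 tested genes were called, 551 higher and 852 lower. The edgeR test called 0 of the pathway genes without SRPK2 replicate 1 or 3 or without control replicate 1 or 3.

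The gene that fell was SHISA2. Shisa proteins hold immature Frizzled receptors in the endoplasmic reticulum, as shown in frog and chick embryos. SHISA2 had 41.7, 39.2 and 40.4 CPM in the SRPK2 libraries, against 50.2, 48.5 and 50.9 CPM in the controls, with every SRPK2 library below every control. It fell by 0.30 on the log2 scale (SE 0.05, edgeR adjusted p = 0.0269). The call was lost with libraries scaled by size alone (log2 fold change -0.27, edgeR adjusted p = 0.0713). It was lost too without SRPK2 replicate 1 or 3 or control replicate 1 or 3 (edgeR adjusted p from 0.0586 to 0.161), where the log2 fold changes, -0.33 to -0.29, were about as large. With limma on the FPKM values the log2 fold change was -0.24 and -0.26 with pseudocounts of 1 and 0.1 (adjusted p = 0.113 and 0.114). Of the other 4 tested genes of receptor maturation none passed, among them MESD, the chaperone of LRP5 and LRP6 (-0.03, SE 0.05), and TMEM59 (-0.06, SE 0.06).

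Among ligands 9 of 16 with a row were tested and 0 passed, with 0 at an unadjusted p under 0.05. The most abundant were WNT5B, at 5.23 ± 0.419 FPKM with SRPK2 and 5.69 ± 0.332 FPKM in the controls, and WNT7B, at 4.81 ± 0.45 FPKM with SRPK2 and 4.32 ± 0.13 FPKM in the controls (SD, n = 3 each). WNT5B had a log2 fold change of -0.16 (SE 0.08) and WNT7B one of 0.12 (SE 0.07). NDP, which encodes norrin, and TSPAN12, a tetraspanin of the complex of norrin with FZD4 and LRP5, were picked for FZD4 after its values were seen. NDP had 2.01, 1.97 and 2.22 CPM with SRPK2, against 2.42, 2.56 and 2.02 CPM in the controls (-0.17, SE 0.15), and TSPAN12 had a log2 fold change of 0.10 (SE 0.08). Both overlapped between the groups. Of the Wnt secretion genes, the ligand carrier WLS had 0.06 (SE 0.05) and the acyltransferase PORCN -0.10 (SE 0.05), and 0 of 3 passed.

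DKK1, a secreted protein that binds LRP5 and LRP6 and blocks Wnt signalling, was the most abundant gene of the inhibitors, at 169 ± 11.8 FPKM in the SRPK2 libraries and 193 ± 10.4 FPKM in the controls (SD, n = 3 each). Its level was 386, 445 and 394 CPM with SRPK2, against 449, 500 and 482 CPM in the controls, apart between the groups. It did not pass (log2 fold change -0.22, SE 0.07, edgeR adjusted p = 0.164), but did without SRPK2 replicate 2 (-0.29, edgeR adjusted p = 0.0186) and with no filter on low counts (-0.23, edgeR adjusted p = 0.0082). None of the other 7 tested inhibitors passed, TPBG among them at 0.06 (SE 0.05). Among genes of receptor turnover 0 of 5 passed. LGR4, a receptor of R-spondins, had 0.10 (SE 0.08) and ZNRF3, a ubiquitin ligase that removes Frizzled proteins from the membrane, 0.01 (SE 0.08).

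Other Wnt receptors and relatives had 0 of 12 past the threshold, with RYK at -0.09 (SE 0.06) and the polarity gene VANGL1 at 0.07 (SE 0.06). Of 10 tested relatives of LRP5 and LRP6 0 passed, with LRP10 at 0.08 (SE 0.06).

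Downstream of the receptors 0 of 19 transducers, 0 of 14 nuclear factors and 0 of 15 target genes passed. The medians of the log2 fold changes were 0.02, 0.07 and 0.01. Among transducers GIPC1 had -0.06 (SE 0.06) and CSNK1A1, a kinase of the beta-catenin destruction complex, -0.07 (SE 0.05). Of the nuclear factors PYGO2, a co-activator of beta-catenin, had 0.07 (SE 0.05) and the co-repressor TLE1 -0.05 (SE 0.05). FOSL1, an AP-1 subunit and the most abundant target after DKK1, had 0.04 (SE 0.06). At an unadjusted p under 0.05 the counts were 1 higher and 0 lower for transducers and for nuclear factors, and 2 higher and 2 lower for target genes. Groups were apart in CPM for 15.8% of transducers, 21.4% of nuclear factors and 33.3% of target genes, next to 20.1% of all tested genes. Among target genes 2 were apart with SRPK2 higher and 3 with SRPK2 lower.

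**Figure D5:**
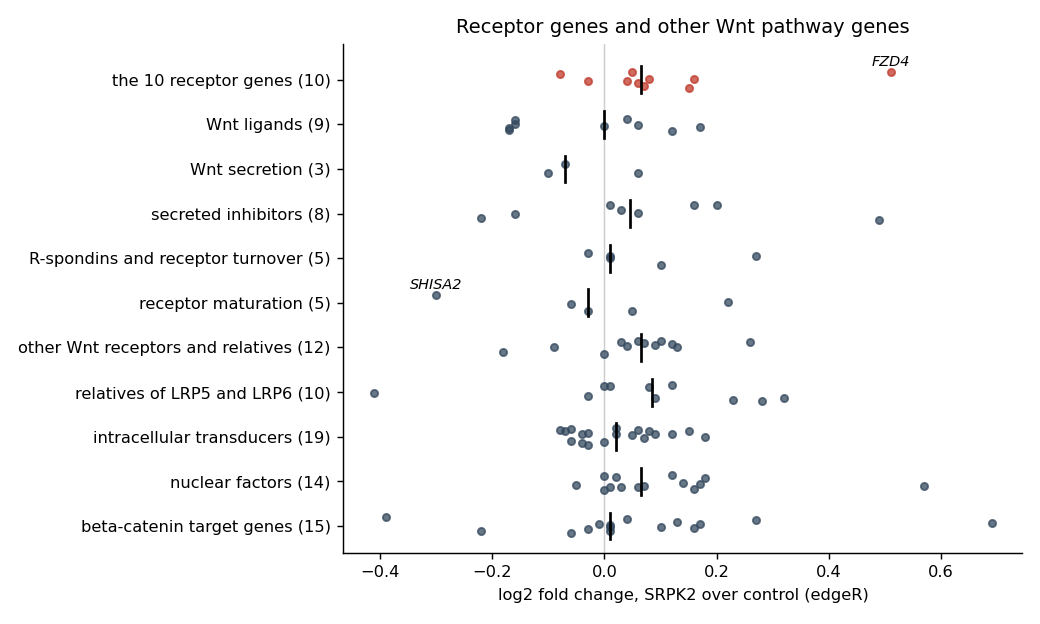
Log2 fold change of SRPK2 over control (edgeR) for the 10 receptor genes and for the tested genes of 10 Wnt pathway lists, with the number of genes in brackets. Points are genes (a gene may be in 2 lists), black lines are medians, and the named genes, FZD4 at 0.51 and SHISA2 at -0.30, are those past the threshold.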

How the data were processed

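RNA sequencing data of 3 SRPK2 and 3 control libraries were grouped by their titles. Per the submitters' processing notes, reads went through bcl2fastq, FastQC and HISAT2 with the build GRCh38. How reads were counted, with which annotation and strand setting, and the versions are not given in the sources used. The labels call the replicates biological and do not say what they share. The p-values set the difference between the groups against the spread between these libraries. The authors deposited whole-number counts per gene (29710 genes) and FPKM values (29256 genes, 2 decimals).

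Counts were tested over the whole table with edgeR 4.0.16 in R 4.3.3 (TMM, filterByExpr, glmQLFit, glmQLFTest, two-sided, group as the only term), with Benjamini-Hochberg adjustment over 16515 genes, which held 99.9% of the reads, and a threshold of 0.05. An SE is the size of the log2 fold change divided by the root of the F statistic. Replicates differed by more than sampling noise (chi-square per degree of freedom between 4.74 and 16.7). The 10 genes, the lists and the rules were chosen with earlier results of these data known. Named were the 10 genes, SRPK2, called genes of each list and the 2 most abundant of each by control FPKM, and the 3 genes nearest to the member with the largest difference; MESD, NDP, TSPAN12, genes overlapping members and those in the closing section were named in addition. A gene that the rule names is not reported here.

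Loci came from GENCODE 29, matched by identifier without version, and promoters from RefSeq. Alternatives were RLE factors, library size alone, no filter, a filter at a mean CPM of 5, DESeq2 (1.42.0), limma (3.58.1) on log2(FPKM + 1) or log2(FPKM + 0.1) for genes with mean FPKM from 0.5, a block for the replicate number, a loess gene length correction (span 0.3), both together, and leaving out each library. The scripts were tested on simulated counts. Python 3.11.15 and matplotlib 3.10.9 drew the figures.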

Additional observations from a re-analysis of the deposited data

How the results depend on the processing

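The median log2 fold change of the 10 genes stayed between 0.04 and 0.10 under the 16 alternatives, and FZD4 between 0.41 and 0.55, past the threshold in each. LRP5 and LRP6 stayed above 0 (0.10 to 0.21 and 0.09 to 0.19), as did FZD1, FZD2 and FZD5, and FZD7 stayed below 0 (-0.13 to -0.02). FZD3, FZD6 and FZD8 lay on both sides of 0 or at it (0.00 to 0.11, -0.03 to 0.08 and -0.07 to 0.01). FZD3 was filtered out of the limma fits. The number of genes called over the whole table, 75, was 997 with no filter, 133 with DESeq2, 119 with the gene length correction, and 27 to 1403 with a library left out, the highest without SRPK2 replicate 2. The number of other Wnt pathway genes called, 1, was 0 with library size alone and with limma on FPKM plus 1 and plus 0.1, 5 with no filter, and 0 to 7 with a library left out. The replicate numbers were not taken as pairs: deviations from the group means correlated across genes at 0.0839, 0.23 and 0.171 for libraries of the same number, although every library correlated best with its own number. With the number as a replicate block, 3899 of 16515 genes and 15 of 94 pathway genes were called. With the block and the length correction these were 3071 of 15809 and 19 of 88. Of the 10 receptor genes 3 and 2 were then past the threshold, FZD4 and LRP5 in both fits and LRP6 in the first. Of the pathway genes named by the rule, DKK1, SHISA2 and WNT5B were past it in both fits, and LGR4 and LRP10 in the first only. CSNK1A1, FOSL1, PORCN, PYGO2, RYK and TMEM59 were past it in the second only. Whether these genes pass thus depends on the block. Since the 10 genes were picked with this comparison known, nothing is read from their counts. With 3 libraries a group, differences of the size seen for most of these genes are close to their SE. The causes were not tested.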

Other observations

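Rows next to or related to the receptor genes, picked after their values were seen, gave the following. FZD4-DT, a noncoding gene named for its divergence from FZD4, had 20, 27 and 35 reads in the SRPK2 libraries, against 20, 21 and 18 reads in the controls, and did not pass (log2 fold change 0.46, SE 0.25, edgeR adjusted p = 0.353). Its groups overlapped in CPM, and its few reads limit the comparison. LRP5L, a locus related to LRP5, had 5.40, 4.92 and 6.10 CPM with SRPK2, against 4.78, 4.34 and 5.19 CPM in the controls (0.20, SE 0.11, edgeR adjusted p = 0.38). BAALC-AS1, which shares 138 exonic bases with FZD6 on the opposite strand, had 1.56, 1.63 and 1.46 CPM with SRPK2, against 1.76, 1.36 and 1.61 CPM in the controls.

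PTK7, a pseudokinase receptor of planar cell polarity, had 25.6, 23.8 and 26.0 CPM in the SRPK2 libraries, against 21.2, 20.2 and 21.4 CPM in the controls, and its groups did not overlap. Its log2 fold change was 0.26 (SE 0.06), which did not pass (edgeR adjusted p = 0.0967).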
